A study of Gorilla gorilla with 12 samples.

Results

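Cadherins, catenins and the gap junction protein connexin-43 were followed through 12 expression arrays of cultured gorilla fibroblasts, the cells that make the fibres of connective tissue. The genes asked for were the cadherins CDH2, CDH11 and CDH13, the protocadherin PCDH9, the catenins CTNNB1 and CTNNA1, and GJA1, which encodes connexin-43. All probe sets (groups of short probes read together as 1 value) annotated with 1 gene symbol, and that symbol one of these, were taken. They were 16 of 12625 probe sets on the array, of which 10961 carried 1 symbol, and they covered 6 of the 7 genes, of 8229 genes with such a probe set. Probe sets of a gene are numbered here from the brightest, by mean level over the standard arrays. No probe set carried CDH13 as its only symbol, and that gene was not analysed here.

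The arrays fell into 3 groups. A culture of the male line KB_7621, from a donor of 26 years, was harvested at 50% confluence, when cells covered only part of the dish. Standard cultures of 5 male lines came from donors of 19 (KB_7500), 26 (KB_7621), 24 (KB_7801), 18 (KB_8592) and 3 years (KB_9047). Standard cultures of 6 lines labelled female came from donors of 19 (KB_5047), 19 (KB_6268), 35 (KB_6278), 26 (KB_8021), 30 (KB_8594) and 2 years (KB_8840). All donors were described as normal, and no treatment or genetic change was named for any culture. The sources used here do not give the density of the standard cultures. Each culture was measured on 1 array, and each line had 1 standard culture, so differences among lines include the error of single cultures and arrays, and p-values measure the spread between animals.

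Classical cadherins are membrane proteins that bind the same cadherin on a neighbouring cell and depend on calcium for it. Inside the cell their tails hold beta-catenin, which binds alpha-catenin, and alpha-catenin links the complex to actin. Beta-catenin that is not held at the membrane or destroyed can enter the nucleus and act with TCF and LEF factors on transcription. Connexins assemble into gap junction channels that let ions and small molecules pass between cells in contact. Fibroblasts in culture make such contacts as they fill a dish.

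The values are intensities, the brightness of a probe set on a linear scale, and their lowest value was 100 on every array. A value of 100 is read here as a floor and only as an upper limit. Standard arrays had 40.1% to 48.82% of all probe sets at the floor and medians of 106 to 148. The array of the 50% confluence culture had 49.18% at the floor, a median of 105 and a highest intensity of 18027, against 20629 to 43135 on the standard arrays. The probes belong to a human array type, so a base that differs in gorilla can dim a probe set, and no gene's level is read against another's. Per-array intensities are as deposited, while differences, SDs and correlations are on log2 values after quantile normalization, which gives all arrays the same distribution. In such RNA from whole cultures, fewer cells of a type and less RNA per cell cannot be told apart.

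One line went against its label. The Y-linked gene RPS4Y1 read 2662 to 4363 in male lines, 100 to 115 in 5 of the lines labelled female, and 2595 in the line labelled female KB_6278. That line was also the oldest and stood at the edge for several of the genes below. Most sex differences, age slopes and wider folds of the member genes are therefore also given without it. Fibroblast markers (9 of 11 had a probe set, among them collagens and vimentin) summed to 68965 in the 50% culture of KB_7621 and to 123761 in its standard culture. Over all standard arrays the sum was 72118 to 123761. After normalization, 4 of the 9 were higher and 5 lower in the 50% culture, with a median difference of -0.01 log2 units. The 8 epithelial markers, which include E-cadherin (CDH1), summed to 800 in the 50% culture and 800 to 934 in the standard cultures, where 800 is the sum with every one at the floor. KRT5, KRT14, KRT19 and DSP were at the floor on all 12 arrays. The 6 endothelial markers summed to 600 in the 50% culture and 600 to 828 in the standard cultures, with 600 as the sum at the floor and VWF there on every array. Leukocyte markers (5 of 6) summed to 972 in the 50% culture, 1484 in the standard culture of KB_7621 and 891 to 2772 over all standard cultures. Their sum at the floor would be 500. PTPRC and LCP1 were at the floor on all 12 arrays. CD14, CD3E and CD68 read 100 to 1673, 140 to 252 and 420 to 1080 in the standard cultures. Melanocyte markers (4 of 5) summed to 443 in the 50% culture and 406 to 941 in the standard cultures, with 400 as the sum at the floor. MLANA read 106 to 247 and PMEL 100 to 433 in the standard cultures. Schwann cell and neural markers (3 of 5) summed to 342 in the 50% culture and 300 to 502 in the standard cultures. Their sum at the floor would be 300. Muscle and myofibroblast markers summed to 17690 in the 50% culture, 36075 in the standard culture of KB_7621 and 12602 to 40711 over all standard cultures. After normalization, 1 of the 4 tested was higher and 2 lower in the 50% culture, none by 2-fold or more. The median difference of these 4 was -0.32 log2 units. Among them ACTA2 read 885 to 17653 over the standard cultures.

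Among the cadherins, CDH2 (N-cadherin, the classical cadherin of mesenchymal and neural cells) varied widely between lines. Its brighter probe set, number 1, read 3362, 2177, 1370, 1265 and 3232 in the male lines KB_7500, KB_7621, KB_7801, KB_8592 and KB_9047. In the female lines KB_5047, KB_6268, KB_6278, KB_8021, KB_8594 and KB_8840 it read 1075, 2489, 467, 1213, 1853 and 3726. The highest and lowest lines were both labelled female, and the sexes overlapped over the whole male range. The highest line stood 7.98-fold above the lowest, and 3.47-fold without KB_6278. The standard deviation (SD) over the 11 lines was 0.90 log2 units, larger than for 97.35% of the 7541 probe sets that passed a filter on dim signal. Without KB_6278 the SD was 0.68, larger than for 90.49%. The dimmer CDH2 probe set, number 2, read 152 to 477 in male lines and 100 to 246 in female lines. Its highest value was that of KB_9047 and its lowest, at the floor, that of KB_6278. The CDH2 probe sets correlated with r = 0.58 and rho = 0.65 over the 11 lines (permutation adjusted p = 0.186 for r).

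CDH11 (cadherin-11, a classical cadherin known from mesenchymal cells, bone and synovial fibroblasts) was more even than CDH2, most clearly for its brightest probe set. Probe set 1 read 2250, 2572, 2417, 2044 and 2613 in the male lines in the same order, and 2389, 1932, 1773, 1939, 2746 and 2979 in the female lines. The 5 male values lay inside the female range, and the highest line stood 1.68-fold above the lowest, or 1.54-fold without KB_6278. The SD was 0.27 log2 units, larger than for 13.17% of probe sets. The second probe set, number 2, read 814 to 1637 in male and 728 to 1647 in female lines. Its SD of 0.42 was larger than for 53.27% of probe sets. Both gave KB_6278 the lowest value, as both CDH2 probe sets did. They followed each other over the lines (r = 0.84, rho = 0.80, permutation adjusted p = 0.0364 for r and 0.0679 for rho, and r = 0.75 without KB_6278 and KB_8594). It was the only one of 14 pairs of probe sets for the same gene whose r passed 0.05.

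PCDH9 (a protocadherin, from a branch of the cadherin superfamily best known in the nervous system) had 3 probe sets that did not run together. The brightest, number 1, read 609, 268, 469, 639 and 188 in the male lines and 156, 656, 473, 366, 342 and 396 in the female lines. Male and female lines overlapped over most of their ranges, and the fold between the highest and lowest line was 4.21. Its SD of 0.73 log2 units was larger than for 92.76% of probe sets. Probe set 2 stayed between 100 and 273, and probe set 3 was at the floor on all 12 arrays. The measured pair correlated with r = 0.28 and rho = 0.24 (permutation adjusted p = 0.526 for r), so the PCDH9 values below rest on probe set 1 alone.

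**Figure D1:**
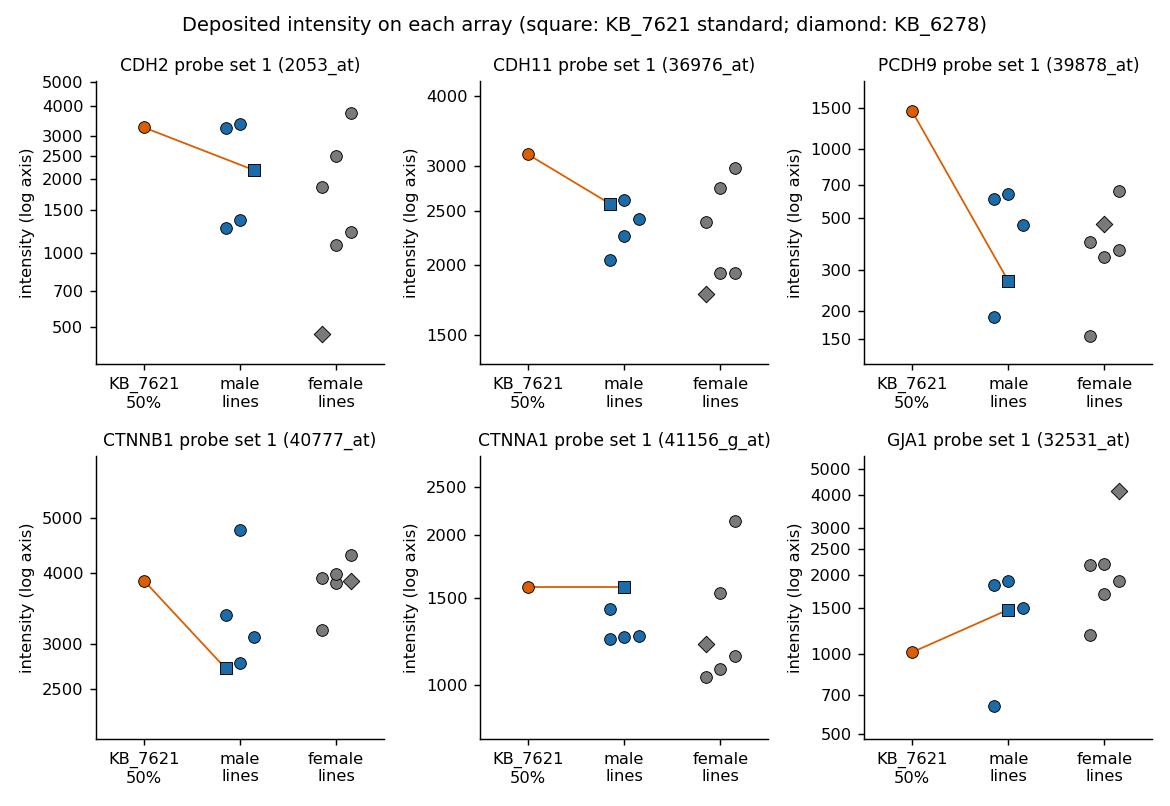
Deposited intensity (log axis) of 1 probe set per gene, with the 50% confluence culture of KB_7621 in orange, the 5 male standard lines in blue and the 6 lines labelled female in grey, 1 point per array. The square is the standard culture of KB_7621, joined by a line to its 50% culture, and the diamond is KB_6278. PCDH9 in the 50% culture, at 1447, lies above all standard lines, and KB_6278 is lowest for CDH2 at 467 and highest for GJA1 at 4157.

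CTNNB1 (beta-catenin) was among the steadier transcripts. Its single probe set read 3093, 2722, 3385, 2785 and 4762 in the male lines and 3993, 3177, 3877, 3929, 3843 and 4311 in the female lines. KB_9047, the youngest male, was the highest line, and the other 4 males lay below 5 of the 6 females. The SD of 0.26 log2 units was larger than for 12.07% of probe sets, and the fold between the highest and lowest line was 1.75.

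CTNNA1 (alpha-E-catenin) had 6 probe sets, of which number 6 was above the floor only in the standard culture of KB_7621, at 109. The brightest, number 1, read 1252, 1574, 1251, 1425 and 1239 in the male lines and 1535, 1036, 1212, 1144, 2139 and 1075 in the female lines. KB_8594 was the highest, and the males lay inside the female range. SDs of the 5 measured CTNNA1 probe sets ran from 0.29 to 0.50 log2 units. Correlations between pairs of them ran from -0.05 to 0.68 and none passed the threshold.

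GJA1 (connexin-43, the main gap junction protein of fibroblasts) also varied widely between lines, less than CDH2 for the brightest probe set of each. Probe set 1 read 636, 1476, 1831, 1502 and 1893 in the male lines and 2169, 2189, 4157, 1184, 1887 and 1687 in the female lines. KB_7500 was lowest and KB_6278 highest, 6.54-fold apart, or 3.44-fold without KB_6278, and the other 9 lines lay between 1184 and 2189. The SD was 0.65 log2 units, larger than for 88.16% of probe sets, and 0.53 without KB_6278, larger than for 75.98%. The dimmer probe set, number 2, read 100, 382, 124, 197 and 100 in the male lines and between 100 and 715 in the female lines, with 3 of these at 100. Thus 5 of 11 lines were at the floor, KB_6278 was again the highest, and the SD of 1.09 exceeded that of 98.98% of probe sets. The pair correlated with r = 0.64 and rho = 0.57 (permutation adjusted p = 0.102 for r), and with r = 0.33 without KB_6268 and KB_6278.

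The median SD of the 14 member probe sets that passed the filter was 0.46 log2 units, against 0.41 for all 7541 tested. Among probe sets of similar level (within 0.5 log2 units), the SDs of CDH2 probe set 1, PCDH9 probe set 1 and GJA1 probe set 1 lay at the percentiles 95.77, 90.62 and 89.08. Those of CDH11 probe set 1, CTNNB1 and CTNNA1 probe set 1 lay at 26.55, 26.44 and 38.87. CDH11 probe set 2 lay higher, at 65.34, and CTNNA1 probe sets 2 to 5 between 8.27 and 77.55.

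**Figure D2:**
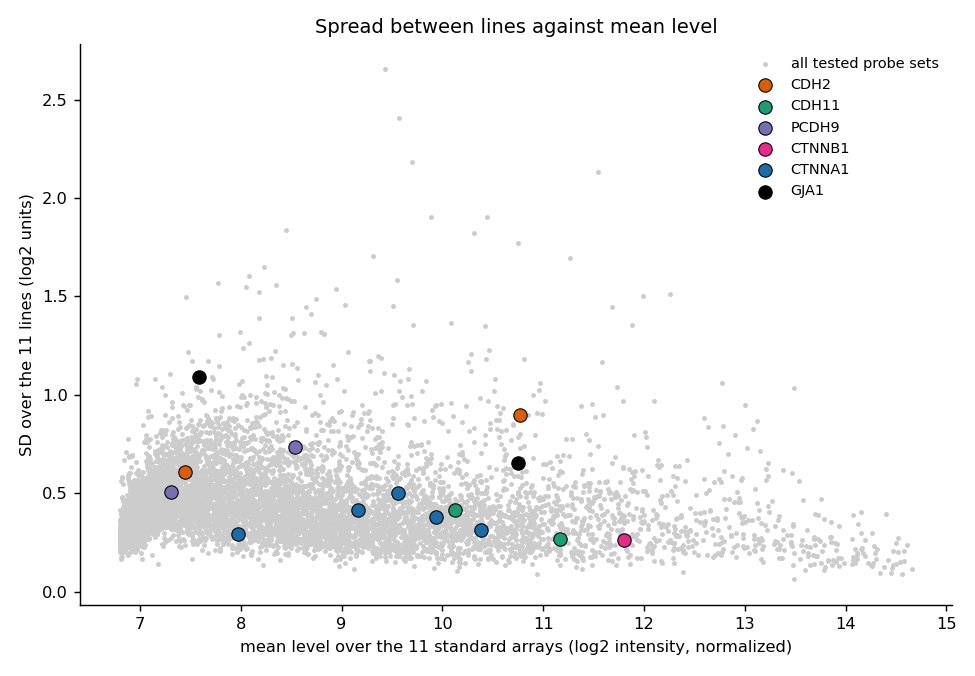
SD of log2 values over the 11 standard lines against mean log2 intensity, with all 7541 tested probe sets in grey and the 14 member probe sets coloured by gene. CDH2 probe set 1 at 0.90 and GJA1 probe set 2 at 1.09 lie near the top of the cloud, and CTNNB1 at 0.26 and CDH11 probe set 1 at 0.27 near the bottom.

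The 50% confluence culture was set against the standard culture of the same line, KB_7621, to see which junction genes differed between them. The density of the standard culture is not given, and the part of density in a difference was not tested. There was 1 array for each culture, so no test was possible. A difference was described by its fold and by whether the 50% array lay outside the range of the 11 standard arrays. PCDH9 stood out. Its probe set 1 read 1447 at 50% confluence and 268 in the standard culture, a 5.69-fold difference after normalization (2.51 log2 units), and lay above all 11 standard lines, whose highest was 656. The second PCDH9 probe set did not share it, at 109 in the 50% culture and 139 in the standard culture, a difference of 0.14 log2 units after normalization and -0.35 as deposited.

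CDH2 and CDH11 read higher in the 50% culture. CDH2 probe set 1 was 3258 at 50% and 2177 in the standard culture (log2 difference 0.52), and probe set 2 was 268 at 50% and 152 in the standard culture (1.16, or 0.82 as deposited). Both stayed inside the range of the standard lines. CDH11 probe set 2 was 1690 at 50% and 1212 in the standard culture (0.37) and lay just above all 11 standard lines, whose highest was 1647. CDH11 probe set 1 was 3146 at 50% and 2572 in the standard culture (0.23). It lay above the standard lines in the deposited values and within them after normalization.

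The catenins gave no common direction. CTNNB1 read 3884 at 50% and 2722 in the standard culture (0.39), which was the lowest of all standard lines for this gene. The 5 CTNNA1 probe sets differed by -0.08, -0.32, -0.57, 0.01 and 0.62 log2 units in order of brightness. Of these, probe set 5, at 380 in the 50% culture and 278 in the standard culture, lay just above all standard lines, whose highest was 374.

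GJA1 read lower in the 50% culture. Probe set 1 was 1019 at 50% and 1476 in the standard culture, 1.54-fold lower and inside the range of the standard lines. Probe set 2 was at the floor of 100 at 50% and 382 in the standard culture, at least 3.82-fold lower in deposited intensity. The log2 difference was -1.86 after quantile normalization and -1.44 with arrays scaled to a common median, both against the floor. The 5 standard lines at the floor for probe set 2 read the same as the 50% culture.

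Of the 14 tested member probe sets, 9 were higher at 50% confluence and 5 lower, with a median difference of 0.18 log2 units against 0 for all tested. Differences of 2-fold or more upward were found for 2 of 14 (PCDH9 probe set 1 and CDH2 probe set 2), against 6.96% of all tested probe sets, and downward for 1 of 14 (GJA1 probe set 2), against 7.24%. Counts this small do not set the members apart from the background. The 50% array lay above all standard lines for 3 of 14, against 6.59% of all tested, and PCDH9 probe set 1 alone was both, against 1.56%. None was both 2-fold lower and below all standard lines, against 1.5%. Scaling mattered for the small differences: with arrays scaled to a common median, all tested probe sets shifted by 0.44 log2 units, against 0 under quantile normalization and -0.06 as deposited. Under that scaling GJA1 probe set 1 differed by -0.04, PCDH9 probe set 1 by 2.93, and CTNNA1 probe sets 1, 2 and 3 by 0.50, 0.26 and 0.01, so that these 3 changed sign. The number of members at 2-fold or more, 3 in all, was 5 under that scaling and 1 with a floor of 200.

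Genes of S phase and mitosis moved with this comparison. The mean of 28 such genes was 9.20 log2 units in the 50% culture and 8.14 in the standard culture of KB_7621, and 26 of 28 read higher at 50% confluence, with 14 at 2-fold or above. The brightest were PCNA (the sliding clamp of DNA replication, 3204 at 50% and 1573 in the standard culture), TYMS (thymidylate synthase, 1496 at 50% and 1160 in the standard culture) and CDC20 (an activator of the anaphase-promoting complex, 1846 at 50% and 780 in the standard culture). BUB1B and BUB1, of the spindle checkpoint, were the list's genes that were both 2-fold higher and above all standard lines after normalization. BUB1B read 646 at 50% and BUB1 230, and both were at the floor in the standard culture. The standard lines themselves ran from 7.61 (KB_6278) to 9.56 (KB_7500). The part of cell division in the junction gene differences was not tested. Nor was that of array signal, weakest at 50% confluence and strongest in the standard culture of KB_7621.

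**Figure D3:**
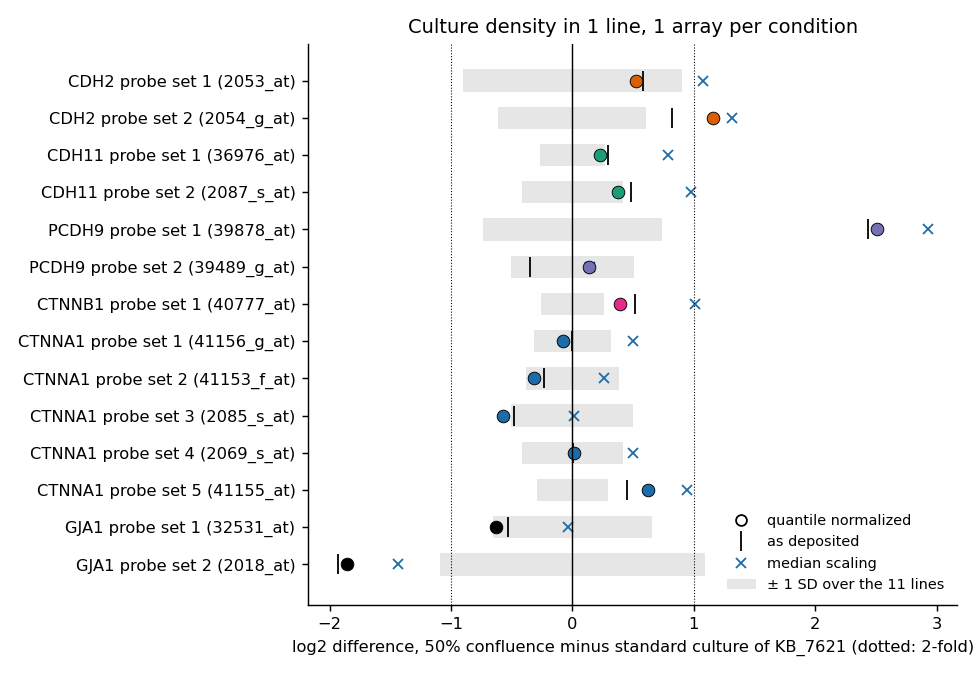
Log2 difference, 50% confluence minus standard culture of KB_7621, for each of the 14 member probe sets, after quantile normalization, as deposited and after median scaling, with grey bars for 1 SD over the 11 standard lines either side of 0 and dotted lines at 2-fold. PCDH9 probe set 1 lies between 2.43 and 2.93 in all 3 versions, while GJA1 probe set 1 moves between -0.63 and -0.04.

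Male and female lines were compared for every tested probe set with limma, which borrows information on the spread from all of them. None of the 7541 passed an adjusted p of 0.05, a share of 0%, and 397 had an unadjusted p under 0.05, none of them a member probe set. Without KB_6278 limma called 1 probe set, which was no member. Adjusted limma p-values of the members ran from 0.890 to 0.996. CDH2 probe set 1 averaged 2281 ± 993 in male lines and 1804 ± 1169 in female lines (SD, n = 5 and 6), a log2 difference of 0.47 with a standard error (SE) of 0.46, and 0.14 without KB_6278. GJA1 probe set 1 averaged 1468 ± 502 in male lines and 2212 ± 1022 in female lines, a log2 difference of -0.57 (SE 0.32). It was -0.37 without KB_6278 and -0.30 without KB_7500, the lowest male. CTNNB1 averaged 3349 ± 833 in male lines and 3855 ± 372 in female lines (-0.23, SE 0.19), and the difference was -0.23 without KB_6278 and -0.36 without KB_9047. The differences for CDH11, PCDH9 and CTNNA1 were 0.07 (SE 0.20), 0.09 (SE 0.39) and 0.04 (SE 0.22), and without KB_6278 they were -0.0017, 0.17 and 0.0081 in that order. All lay within the spread between lines. The cell cycle list had a median male minus female difference of 0.71 log2 units. In limma 12 of its 28 genes had an unadjusted p under 0.05 and 0 passed the adjusted threshold. These values count KB_6278, the line with the lowest cell cycle mean (7.61), as female, and are not given without it. The part of the list in the values above was not tested.

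Donor age was fitted over the 11 standard lines as a slope in log2 units per 10 years, with sex as a covariate. Again limma called none of 7541, a share of 0%, with 410 at an unadjusted p under 0.05, among them 2 member probe sets. The steeper of these was CDH2 probe set 1, with a slope of -0.62 (SE 0.18, limma adjusted p = 0.826). The youngest donors, of 2 and 3 years, had CDH2 intensities of 3726 and 3232, and the 9 donors of 18 years or more had 467 to 3362 with a median of 1370. KB_7500, aged 19, reached 3362, so young and adult lines overlapped. The slope was -0.45 without KB_6278 (limma adjusted p = 0.994). Among donors of 18 years or more it was -0.69 with KB_6278 and -0.03 without it. The other was CTNNA1 probe set 3, at -0.30 (SE 0.13, limma adjusted p = 0.886), and -0.25 without KB_6278. CTNNA1 probe sets 2, 4 and 5 had slopes of -0.07, -0.17 and -0.12, and probe set 1 had 0.11 (SE 0.11, and 0.17 without KB_6278). Slopes for CDH11, PCDH9, CTNNB1 and GJA1 probe set 1 were -0.13, 0.19, -0.16 and 0.07, each less than 2 SE from 0. Without KB_6278 they were -0.09, 0.16, -0.19 and -0.11 in that order, so the GJA1 slope changed sign. Negative slopes were found for 10 of the 14 member probe sets, against 50.54% of all tested. No probe set passed for a difference of the age slope between the sexes, and 282 had an unadjusted p under 0.05 in limma, among them CDH2 probe set 2.

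**Figure D4:**
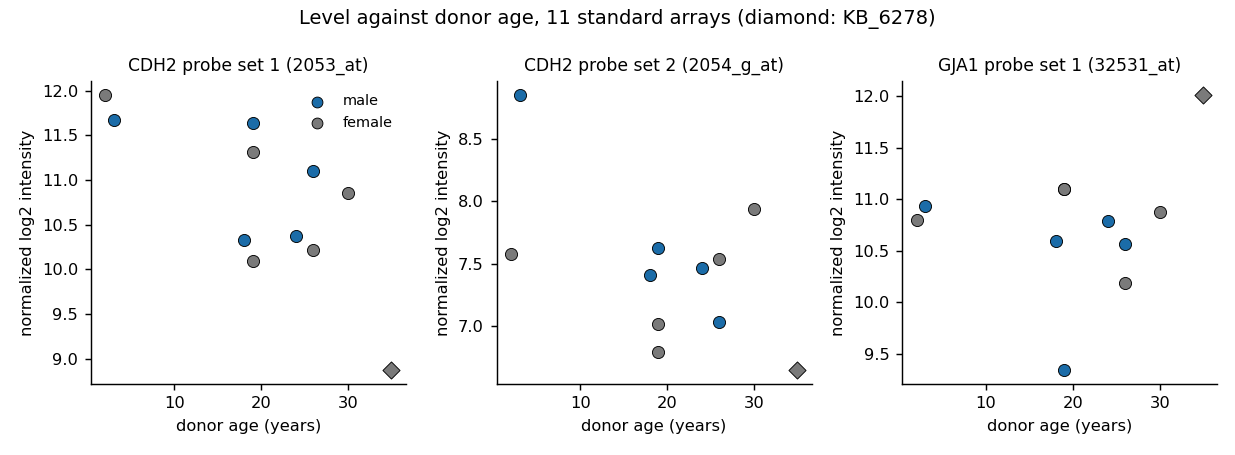
Normalized log2 intensity of CDH2 probe sets 1 and 2 and GJA1 probe set 1 against donor age in years for the 5 male lines (blue) and 6 lines labelled female (grey), 1 point per line, with the diamond for KB_6278 (KB_5047 and KB_6268 overlap for GJA1). For CDH2 probe set 1 the slope of -0.62 log2 units per 10 years did not pass the adjusted threshold, and it was -0.03 without KB_6278 and the donors under 18 years.

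Whether the genes varied together from line to line was examined over the 15 pairs of 6 genes, with 1 probe set each. None passed, and the smallest permutation adjusted p was 0.392 for r and 0.323 for rho. The largest coefficients were r = 0.57 for CDH2 with CDH11 (rho = 0.56), r = -0.56 for PCDH9 with CTNNB1 (rho = -0.58), r = -0.53 for CDH2 with GJA1 (rho = -0.20) and r = -0.52 for CDH11 with PCDH9 (rho = -0.60). CDH2 with CDH11 came to 0.13, and CDH2 with GJA1 to -0.26, without KB_6278 and KB_8840. With only KB_6278 left out, CDH2 with GJA1 gave -0.16, and with only KB_8840 left out it gave -0.61. CDH2 with CDH11 gave 0.38 and 0.45 in that order. PCDH9 with CTNNB1 came to -0.24 without KB_5047 and KB_9047.

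With the second brightest probe set of each gene in place of the brightest, CDH2 probe set 2 and GJA1 probe set 2 ran in opposite directions. The coefficients were r = -0.81 and rho = -0.94 (permutation adjusted p = 0.0176 for r and 0.0012 for rho over the 15 pairs). The relation held without KB_6278 (r = -0.75) and without KB_6278 and KB_9047 (r = -0.93), and r was -0.74 as deposited. Both probe sets were dim, with 5 lines at the floor for GJA1 and 1 for CDH2. The other pairings of CDH2 and GJA1 probe sets gave r of -0.56, -0.53 and -0.32, which did not pass.

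The mean of the 28 cell cycle genes was set against each of the 6 genes, since the density of the standard cultures is not known. No relation passed, with permutation adjusted p-values for r from 0.467 to 0.717. CDH2 gave r = 0.46 (rho = 0.45) and 0.46 without KB_6278 and KB_8840. GJA1 gave r = -0.47 (rho = -0.39), and 0.33 without KB_6278 and KB_7500, so its sign rested on those lines. PCDH9, CTNNB1, CDH11 and CTNNA1 gave 0.37, -0.31, 0.14 and 0.13.

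**Figure D5:**
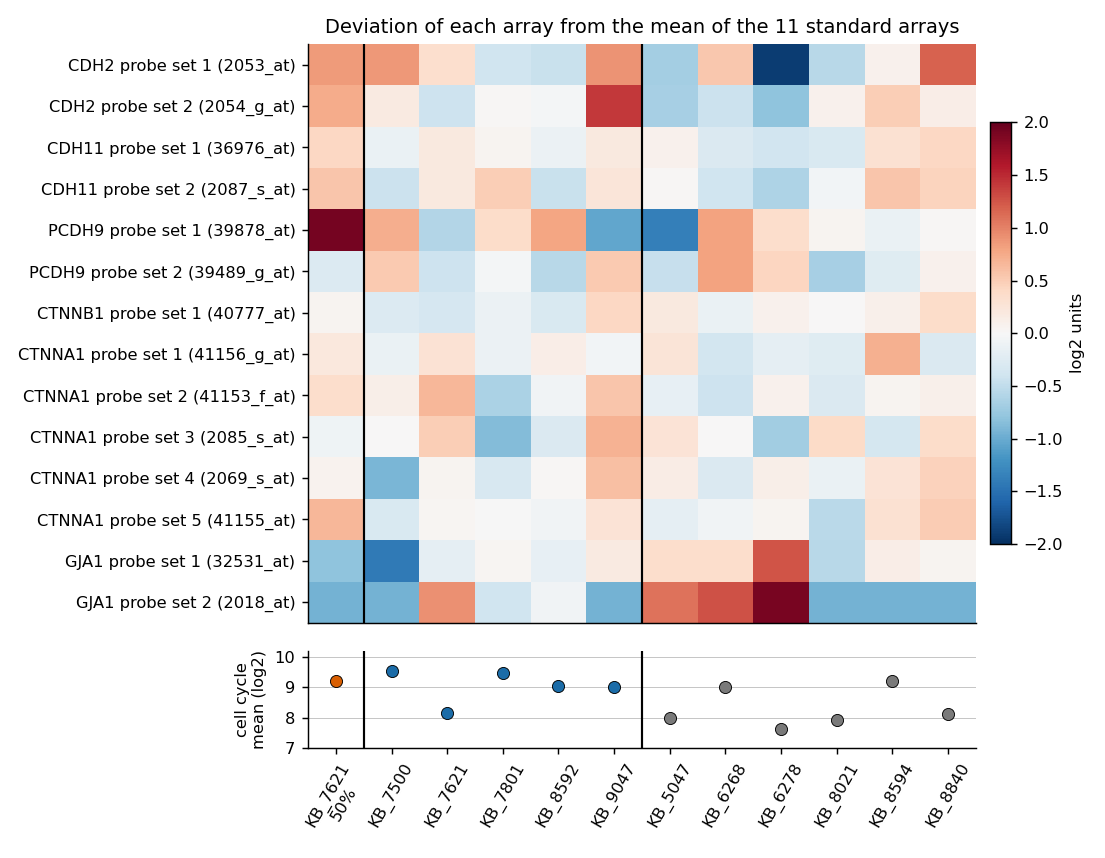
Colour map of the deviation of each array from the mean of the 11 standard arrays (log2 units, red higher and blue lower) for the 14 member probe sets, with the cell cycle mean (log2) of each array below. Columns run from the 50% culture through the 5 male to the 6 lines labelled female. KB_6278 is low for CDH2 and CDH11 and high for GJA1, with the lowest cell cycle mean, 7.61.

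For each gene the probe sets most like it over the 11 lines were listed by Pearson's r, as a description. CDH2 was nearest to RPL10A (0.93), DDX27 (0.87) and VAMP5 (0.85), and CDH11 to NACA (0.88), GNL1 (0.87) and IL10RB (0.86). PCDH9 was nearest to TEX261 (0.87), RO60 (0.87) and TENT4A (0.84). CTNNB1 was nearest to TMEM184B, GANAB and USP9X, each with 0.90, and CTNNA1 to SAG (0.86), DCAF7 (0.80) and the connexin gene GJC1 (0.79). GJA1 was nearest to PRNP (0.90), GFPT1 (0.87) and BCL2L2 (0.87). The r of PRNP was 0.41, and that of BCL2L2 0.18, without the lines KB_6278 and KB_7500. DDX27, VAMP5, SAG, DCAF7 and GJC1 reached the floor and were at most 254, 176, 182, 261 and 175 in the standard lines. GJC1 was at the floor in 6 of 11 lines, so these likenesses rest on values near the floor.

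Other genes of the same families were read from lists. Of 31 other cadherin superfamily genes 27 had a probe set, 12 passed the filter, and 8 were at the floor on all 12 arrays. CDH1 (E-cadherin, the epithelial cadherin) lay between 100 and 199 in the standard lines and at 100 in the 50% culture, and CDH5 (VE-cadherin, of endothelium) between 100 and 101 and at 100. At 50% confluence 3 of the 12 were higher and 7 lower, with 1 lower by 2-fold or more, against 7.24% of all tested probe sets. That gene, CDH3 (P-cadherin), read 142 in the 50% culture and 411 in the standard culture, within the range of the lines. The brightest, FAT1, a giant cadherin, read 2677 at 50% and 2714 in the standard culture, and 1687 to 6726 over the lines. Its male minus female difference, with KB_6278 counted as female, was -0.79 (limma adjusted p = 0.890). PCDH1 read 436 at 50% and 628 in the standard culture, and PCDH7 176 and 263 in that order. Their log2 differences after normalization were -0.50 and -0.29.

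Among 23 catenins, nectins and junction adaptors, 16 were tested. At 50% confluence 10 were higher and 5 lower, none by 2-fold or more, with a median difference of 0.07. The brightest were the actin crosslinkers ACTN4 (9766 at 50%, 7659 in the standard culture) and ACTN1 (5549 at 50%, 7446 in the standard culture) and vinculin, VCL (2494 at 50%, 2523 in the standard culture). Of 12 other connexins and pannexins, 6 had a probe set and 4 were tested, 2 of them higher and 2 lower at 50%, none by 2-fold. These counts are after normalization, while the intensities are as deposited. GJB1 read 333 at 50% and 367 in the standard culture (normalized log2 difference 0.03), and GJC1 114 and 100 in that order (0.44). GJB5 read 165 at 50% and 295 in the standard culture (-0.55), and the pannexin PANX1 100 and 191 in that order (-0.75).

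Of 16 genes of the beta-catenin pathway 13 were tested, 9 higher and 4 lower at 50% confluence. Their median difference was 0.32 log2 units, against 0 for all tested probe sets. Of the 13, 2 were higher by 2-fold or more, against 6.96% of all tested, and 1 lower, against 7.24%. Counts this small do not set the list apart from the background. The genes that differed by 2-fold or more after normalization are named because of their values. AXIN1, a scaffold of the complex that marks beta-catenin for destruction, read 408 at 50% and 224 in the standard culture (log2 difference 1.07). BCL9, a nuclear partner of beta-catenin, read 179 at 50% and was at the floor in the standard culture, at least 1.79-fold higher in deposited intensity (log2 difference 1.02 after normalization). TCF7L2, a transcription factor that binds beta-catenin, read 173 at 50% and 519 in the standard culture (-1.37). It lay below all 11 standard lines in deposited intensity, whose lowest was 187, and within them after normalization. LEF1 was at the floor on all 12 arrays. The brightest genes were CCND1 (cyclin D1), at 11717 at 50% and 8999 in the standard culture, the kinase gene CSNK1A1, at 1723 and 1370 in that order, and the secreted inhibitor DKK1, at 2242 and 1205. No gene of these 4 lists was both 2-fold different and outside the range of the standard lines after normalization, and limma called none for sex or age.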

How the data were processed

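RNA of 12 gorilla fibroblast cultures was measured on 1 expression array each. The authors deposited 1 intensity per probe set and array, on a linear scale with a floor of 100. No source used here gives the software, its scaling or why the floor was set. Gene symbols came from the annotation of the array type.

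Intensities were taken to log2 and quantile normalized over the 12 arrays. Probe sets whose mean over the 11 standard arrays exceeded the 40th percentile were tested, 7541 in all, without the 67 control probe sets. Male minus female differences, age slopes and their interaction were fitted by lmFit and eBayes of limma 3.58.1 (R 4.3.3), with Benjamini-Hochberg adjustment at 0.05. Correlations used 100000 two-sided permutations in Python 3.11.15 with scipy 1.17.1, adjusted within 15 pairs of genes, 6 relations with the cell cycle mean and 14 pairs of probe sets. A gene was represented by its probe set with the highest mean. Values at the floor are upper limits, and precision is limited by how few arrays there are. The fits were also run on simulated normal values, drawn independently for each probe set and without a floor, unlike the real arrays. No result above rests on that run.

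Named genes were all member probe sets, the 3 brightest tested genes of each list, list genes that were called or both 2-fold different and out of range, and the 3 most similar genes per member by r. Marker lists are given as sums. Other genes were named after their values were seen. The members and lists were chosen with earlier results of these data known. Alternatives were other scalings, a floor of 200, other filters, array weights, other probe sets, other codings of age and leaving out each line.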

Additional observations from a re-analysis of the deposited data

Results flagged for a closer look

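Among 28 groups of male or female values of the member probe sets, 2 held a line whose gap to its nearest neighbour exceeded Dixon's critical value, where chance flags about 1 in 20. CTNNB1 in KB_9047 stood at 12.22 log2 units (intensity 4762), above the other male lines. GJA1 probe set 1 in KB_7500 stood at 9.34 log2 units (intensity 636), below the other male lines.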

How the results depend on the processing

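Of the 521 alternatives, 84 on counts and summary values stayed within 1.5 times, or 1 SD, of the main value and 5 moved further. Of those on single values, 400 kept direction and call or stayed within 1 SD, 9 moved, 22 were counted as reversed and 1 passed the threshold newly. Differences at 50% confluence that changed sign are not among the 22. They were counted as moved, or as kept where they stayed within 1 SD. The number of probe sets called between the sexes was 0, but 2 with median scaling, and 0 to 1 when each line was left out, the 1 arising without KB_6278. Member probe sets with 2-fold differences at 50% confluence numbered 3, but 5 with median scaling and 1 with a floor of 200. Correlations between members past the threshold numbered 0, and 1 with the next brightest probe sets. Signs that reversed all belonged to values that passed no test. On leaving out 1 line, the sex difference ran from -0.0017 to 0.16 for CDH11, from -0.17 to 0.37 for PCDH9 and from -0.028 to 0.19 for CTNNA1. The age slope ran from -0.024 to 0.39 for PCDH9 and from -0.11 to 0.23 for GJA1, which was -0.0010 on log2 of age. Among donors of 18 years or more the age slope was 0.030 for CDH11, -0.0020 for PCDH9 and 0.036 for CTNNB1. Without KB_6278 as well, a choice made after seeing the data, it was 0.28, -0.36 and 0.040 in that order. The correlation with the cell cycle mean ran from -0.12 to 0.34 for CDH11 and from -0.11 to 0.23 for CTNNA1 on leaving out 1 line. It was 0.011 for CTNNB1 with median scaling and -0.20 for CTNNA1 with the next brightest probe set. PCDH9 with CTNNB1 gave 0.18 with the next brightest probe set. The causes were not tested. No paired test was possible because only KB_7621 had a second culture, and each culture was measured on 1 array. Probe sets near the floor, such as GJA1 probe set 2, are limited by signal over background.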
